A study of Mus musculus with 2 samples.

Results

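The genes described here drive and mark the cell division cycle: 48 genes of cyclins, their kinases, replication licensing, DNA synthesis and mitosis. They were taken by symbol, and a gene was read where a probe set, a group of short array probes for a transcript, named that gene and no other. A probe set of this kind was found for 47 of the 48 genes, of 18193 genes named in all. Ccnb1 had none and its level was not analysed here. There were 11 genes of the G1 phase, 15 of DNA replication (S phase) and 21 of mitosis (G2/M) with values.

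The tissue was the region between the hind limb digits of mouse embryos at stage E13.5, from natural matings. One RNA sample came from embryos homozygous for Hammer toe (Hm), a mutation that leaves the digits webbed, and the other from wild-type B6 embryos (WT). Both were dissected as ID2 and ID3 in cold PBS and hybridised to Affymetrix arrays. The design text speaks of 3 sets of 5 littermates, 15 embryos per genotype, yet the values are those of 1 array per genotype. The labels name B6 only for WT, so strain and Hammer toe genotype cannot be told apart. With no replicates there was no test and no error between samples, and the number of arrays limits the precision.

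A cell enters the cycle when D-type cyclins and their kinases inactivate the retinoblastoma protein and release E2F transcription factors, which switch on the genes of DNA replication. Later, cyclin B and its kinase drive mitosis, while the spindle checkpoint holds chromosome separation until every kinetochore is attached. In the limb bud, growth of the mesenchyme depends on such division, and the tissue between the digits later stops dividing and dies as the digits separate.

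The 3 promoters below show letters that genes of replication and of mitosis carry. Mcm6 and Cenpa are shown because, on their brightest probe sets, they lay furthest below WT among the Mcm helicase genes and the mitotic genes, and Cdk1 because its promoter holds all 3 kinds of motif. The sequences are RefSeq's for GRCm38.p6, from 250 bases before to 50 after the annotated start, 5′ to 3′ on the gene's strand. Capitals mark matches on either strand to E2F words (TTTCCCGC, TTTGGCGC or TTTCGCGC), to the cell cycle homology region CHR (TTTGAA or TTTAAA), and to the NF-Y box CCAAT.
Mcm6, chr1:128359656-128359955, minus strand: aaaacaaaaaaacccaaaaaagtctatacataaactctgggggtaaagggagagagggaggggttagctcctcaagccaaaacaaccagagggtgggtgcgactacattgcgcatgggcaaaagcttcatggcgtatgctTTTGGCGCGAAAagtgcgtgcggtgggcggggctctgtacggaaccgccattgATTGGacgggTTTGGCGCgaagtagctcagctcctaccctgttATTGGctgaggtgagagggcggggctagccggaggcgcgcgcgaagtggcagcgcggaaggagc
Cenpa, chr5:30666636-30666935, plus strand: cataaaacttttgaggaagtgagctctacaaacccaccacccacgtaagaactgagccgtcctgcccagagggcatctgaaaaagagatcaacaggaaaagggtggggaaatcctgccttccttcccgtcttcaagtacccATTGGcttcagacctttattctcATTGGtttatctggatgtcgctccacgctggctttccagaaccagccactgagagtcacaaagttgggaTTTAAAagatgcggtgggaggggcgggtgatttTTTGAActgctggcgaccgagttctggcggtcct
Cdk1, chr10:69352863-69353162, minus strand: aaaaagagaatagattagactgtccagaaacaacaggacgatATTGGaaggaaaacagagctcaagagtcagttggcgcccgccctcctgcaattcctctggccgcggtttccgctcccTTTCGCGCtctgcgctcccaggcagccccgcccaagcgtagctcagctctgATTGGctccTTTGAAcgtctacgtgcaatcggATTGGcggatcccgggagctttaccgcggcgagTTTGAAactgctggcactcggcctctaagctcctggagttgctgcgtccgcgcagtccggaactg
In Mcm6 the first E2F pair overlaps, at -110 to -103 and at -106 to -99 from the start, and the last match lies at -47 to -40. In Cenpa the CHR words lie at -17 to -12 and at 16 to 21, downstream of both CCAAT boxes.

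The promoter table covered 36 of the 48 genes with 39 windows of 300 bases. The genes it did not cover were Ccnd1, Ccnd2, Myc, Rb1, Ccne2, Gmnn, Mcm4, Ccna2, Aurkb, Cdc25c, Kif20a and Tpx2. An E2F word stood in 6 of 13 windows of S genes (46.2%), in 3 of 9 of G1 genes and in 1 of 17 of G2/M genes. Over the 12074 windows of measured genes the share was 3.54%, and over all 32851 windows 1.84%. The E2F windows of S genes belonged to Cdc6, Cdt1, Mcm3, Mcm5, Mcm6 and Mcm7.

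CHR and CCAAT stood in most windows of G2/M genes. A CHR word stood in 14 of 17 windows of G2/M genes (82.4%), against 19.2% of the windows of measured genes and 27.6% of all windows. CCAAT stood in 16 of the 17 (94.1%), against 37.6% of the windows of measured genes and 37.4% of all windows. In S genes CCAAT stood in 9 of 13 windows (69.2%) and CHR in 4 (30.8%), and in G1 genes CCAAT stood in 3 of 9 and CHR in 2. In Mcm7 an E2F word overlapped a CCAAT box. Median GC content was 57.7% in S windows, 58.0% in G2/M windows and 61.3% in windows of measured genes, and these short words also depend on base composition.

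On the arrays, cell cycle genes read close to WT in Hammer toe tissue. A value here is the MAS5 intensity, the authors' linear signal per probe set, scaled to a common mean on both arrays. Intensities under 78.1, the median of all values, were raised to that floor before the log2 ratio of Hm over WT was taken. All 47 genes lay above the floor on both arrays on their brightest probe set, so none of their ratios is a bound. The median log2 ratio was -0.026, the quartiles were -0.098 and 0.034, and the range was -0.47 (Ccne1) to 0.53 (Myc). For all 11621 measured genes the median was 0.0071 and the quartiles were -0.11 and 0.13. A ratio across arrays that were scaled to the same mean cannot show a change shared by most transcripts, and fewer cells of a type and less RNA per cell cannot be told apart in such tissue.

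None of the 47 genes differed by 1.5-fold, a size reached by 3.56% of measured genes. Above an intensity of 1000, where 41 of the 47 lay, only 0.68% of measured genes reached it. At 1.2-fold, 4 of the 47 (8.51%) were called by size, against 20.5% of measured genes. Myc and Cdk6 were the 2 higher in Hm, and Ccne1 and Tyms the 2 lower, where the shares of all measured genes were 11.5% higher and 8.99% lower. Tyms was lower only on the brightest probe set that names it alone, and without it 3 of 46 reached 1.2-fold. These genes are mostly bright, and bright genes scatter less: above an intensity of 1000, 2 of 41 cell cycle genes reached 1.2-fold, against 7.61% of measured genes at that brightness. Between 200 and 1000, 2 of 6 did, against 24.0%. The members' counts above 1000 thus lie near that background.

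Small differences pointed down more often than up. Of the 47 genes 32 were lower in Hm and 15 higher, while 48.3% of measured genes were lower. Scaling by medians or by lowess gave 34 lower and 13 higher, because Pcna and Rrm2, both at a log2 ratio of 0.0066 or less, changed sign there. The mean over measured probe sets gave 28 lower and 19 higher. The spiked hybridisation controls, 18 probe sets for RNA added in known amounts, had log2 ratios with an SD of 0.063. That SD does not cover differences between dissections or between RNA samples. Of the 47 genes 33 (70.2%) lay within 0.10 of 0, against 43.7% of measured genes. Above an intensity of 1000 it was 29 of 41 (70.7%), against 57.0% of measured genes.

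**Figure D1:**
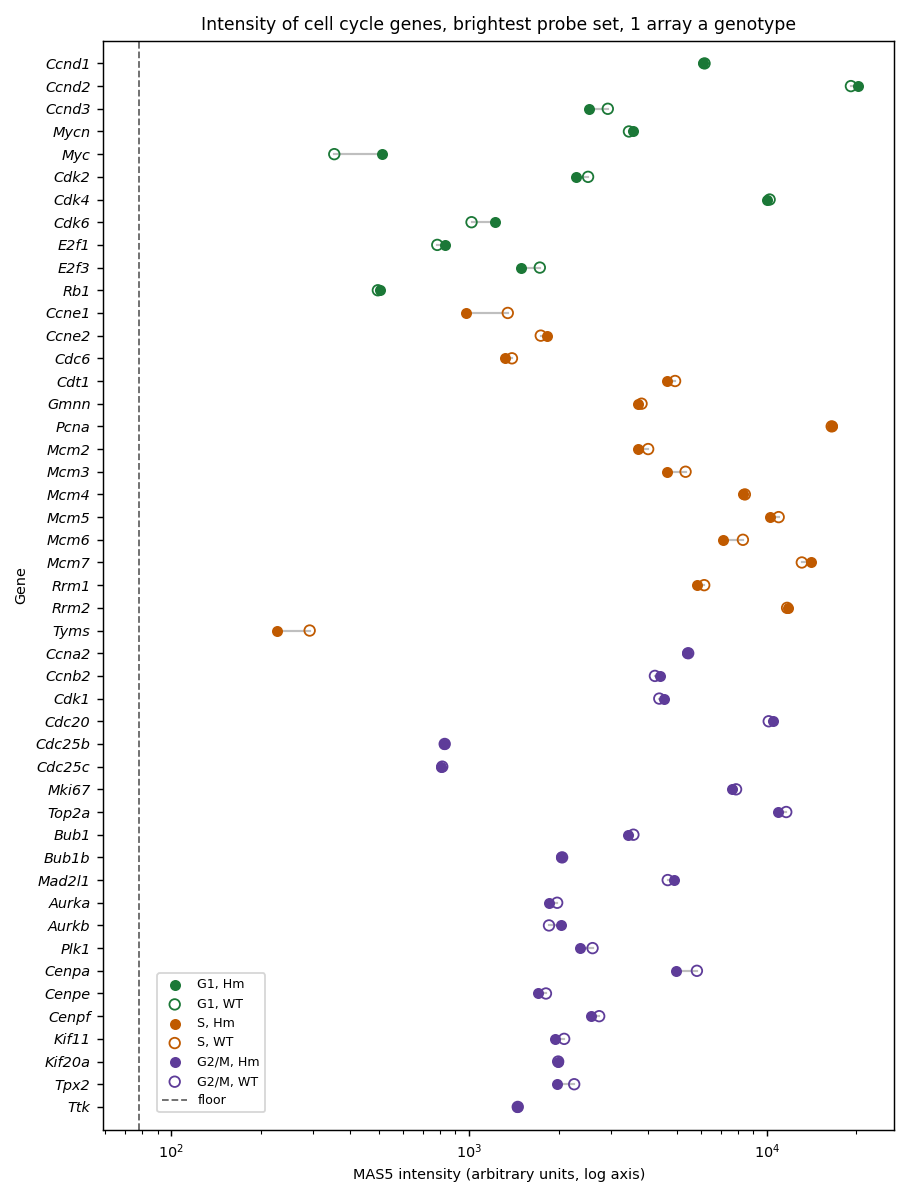
MAS5 intensity (log axis) of 47 cell cycle genes on the brightest probe set, with filled points for the Hm array and open points for the WT array, coloured by phase, and the floor of 78.1 as a dashed line. The points of most genes nearly coincide, and the widest gap is that of Myc, at 509 in Hm and 353 in WT.

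The G1 genes were spread around WT, with 6 of 11 higher and 5 lower and a median log2 ratio of 0.020. Cyclins D start the cycle by activating Cdk4 and Cdk6. Ccnd2 read 20329 in Hm and 19182 in WT, and Ccnd1 read 6113 in Hm and 6184 in WT, log2 ratios of 0.084 and -0.017. Ccnd3 was lower, at 2540 in Hm and 2927 in WT, a log2 ratio of -0.20. A dimmer Ccnd3 probe set, at 105 in Hm and under the floor in WT, went the other way with a bound of at least 0.43.

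The kinases of G1 did not share a direction. Cdk6 read 1225 in Hm and 1020 in WT, just past 1.2-fold. All 3 of its probe sets were higher, with log2 ratios of 0.26, 0.33 and 0.36. Cdk4 read 10043 in Hm and 10228 in WT, and its probe sets ranged from -0.046 to 0.040. Cdk2, the partner of cyclin E, read 2294 in Hm and 2513 in WT, a log2 ratio of -0.13.

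Myc had the largest ratio of the 47 genes. This growth-promoting transcription factor read 509 in Hm and 353 in WT, 1.44-fold higher, on its single probe set. Among measured genes between 200 and 1000, 95% lay within 1.45-fold. With the floor raised to the 75th percentile the WT reading fell under it, and the log2 ratio of Myc was a bound of 0.032. Its relative Mycn, abundant in limb bud mesenchyme, read 3566 in Hm and 3447 in WT, and its other probe set bright enough on both arrays stood at 0.20 on the log2 scale.

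The E2F and pocket protein genes gave small and mixed values. E2f3, an activator of replication genes, was lower on both probe sets, each with a log2 ratio of -0.21, at 1498 in Hm and 1730 in WT on the brighter one. E2f1 had opposed probe sets: 833 in Hm and 783 in WT on the brighter, and 286 in Hm and 391 in WT on the other, log2 ratios of 0.090 and -0.45. Rb1, the retinoblastoma protein that restrains E2F, read 501 in Hm and 495 in WT.

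S phase genes leaned lower. Of 15 genes 11 were lower in Hm and 4 higher, with a median log2 ratio of -0.077. Among all measured genes 48.3% were lower. The count of S genes was 13 lower and 2 higher under the scaling by medians and by lowess. With the mean over measured probe sets it was 10 lower and 5 higher, with a median of -0.052. Without Tyms, whose probe sets oppose each other, 10 of 14 were lower and 4 higher, with a median of -0.076. The quartiles of S genes were -0.16 and -0.0081, and those of all measured genes above an intensity of 1000 were -0.081 and 0.088.

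Cyclin E brings cells from G1 into replication. Ccne1 read 978 in Hm and 1350 in WT, 1.38-fold lower, on a probe set of a type (_x_at) whose probes can also bind other transcripts. Its other probe set read 865 in Hm and 891 in WT, a log2 ratio of -0.043. Ccne2, the second cyclin E gene, was slightly higher, at 1832 in Hm and 1743 in WT.

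The licensing genes, whose products control the loading of the replicative helicase onto origins once per cycle, lay within 1.1-fold of WT. Cdt1 read 4636 in Hm and 4924 in WT, a log2 ratio of -0.087, and the other measured probe set stood at -0.078. Cdc6 read 1324 in Hm and 1395 in WT, and Gmnn (geminin, the inhibitor of Cdt1) read 3693 in Hm and 3799 in WT. All 3 genes were lower on the Hm array.

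Mcm2 to Mcm7 encode the 6 subunits of the helicase. On their brightest probe sets 5 of the 6 were lower in Hm, with a median log2 ratio of -0.11, and this count was the same under the 3 scalings. Mcm6 read 7108 in Hm and 8320 in WT, 1.17-fold lower, and the other measured probe set stood at -0.15. Mcm3 read 4641 in Hm and 5340 in WT, and its 5 probe sets were all lower, from -0.20 to -0.019. These subunits had the same direction on every probe set above the floor, as did Mcm4, at 8316 in Hm and 8446 in WT.

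The other helicase genes had opposed probe sets. Mcm2 read 3685 in Hm and 3999 in WT on the brighter probe set, while the other stood at a log2 ratio of 0.23. Mcm5 read 10258 in Hm and 10970 in WT, with a dim further probe set at 0.30. Mcm7 was the one higher subunit, at 14057 in Hm and 13121 in WT, and its 4 probe sets ranged from -0.098 to 0.099. Averaged over probe sets, 4 of the 6 subunits were lower and the median was -0.047.

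Genes of the fork and of nucleotide supply were near WT where their signal was high. Pcna, the sliding clamp of the polymerases, read 16608 in Hm and 16532 in WT. Rrm1 and Rrm2 are the subunits of ribonucleotide reductase, which makes deoxynucleotides. Rrm1 read 5847 in Hm and 6168 in WT, and Rrm2 read 11762 in Hm and 11711 in WT, with log2 ratios of -0.10 and -0.22 on its other probe sets.

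Tyms, the thymidylate synthase gene, gave values that depend on the probe set. The brightest probe set that names Tyms alone read only 226 in Hm and 292 in WT, 1.29-fold lower. The next read 158 in Hm and 85.9 in WT, a log2 ratio of 0.88, and was the only member probe set to pass 1.5-fold with both arrays above the floor. A far brighter probe set that names Tyms together with Tyms-ps, left out by the choice of members, read 3317 in Hm and 2956 in WT, 1.12-fold higher. No direction is given for Tyms.

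**Figure D2:**
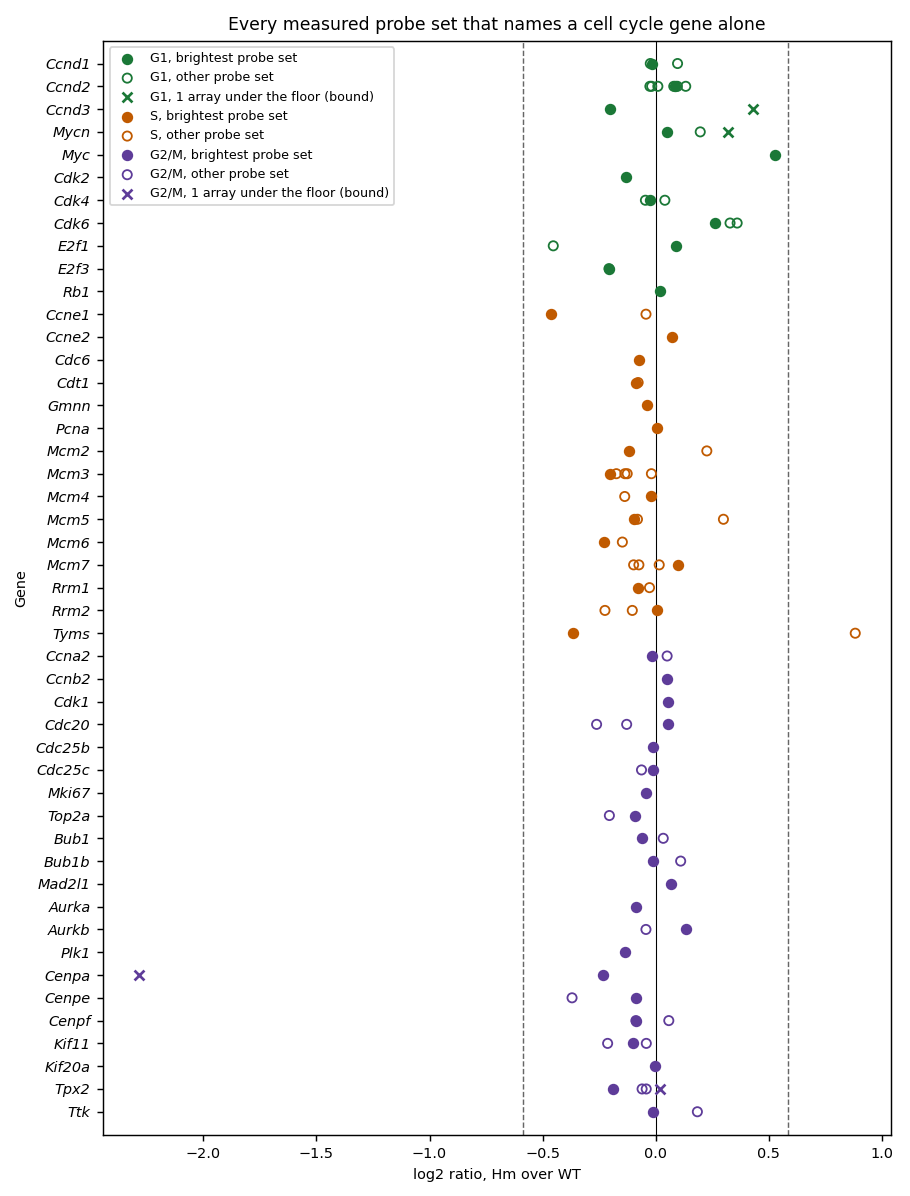
Log2 ratio, Hm over WT, of every measured probe set that names a cell cycle gene alone. Filled points are the brightest probe set, open points other probe sets with both arrays above the floor, crosses probe sets with 1 array under the floor (bounds), and dashed lines 1.5-fold; outside these lie 1 probe set of Tyms, at 0.88, and 1 of Cenpa, a bound of -2.28.

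The G2/M genes lay near WT and, like the S genes, leaned lower. All 21 were within 1.2-fold, 17 (81.0%) were within 0.10 of 0 on the log2 scale, and the median log2 ratio was -0.016. Among measured genes above an intensity of 1000, 57.0% were within 0.10 of 0 and 7.61% reached 1.2-fold. By direction 16 (76.2%) were lower in Hm and 5 higher, a count kept under the 3 scalings. Among S genes 73.3% were lower, and among all measured genes 48.3%. Averaging over probe sets gave 14 lower and 7 higher G2/M genes and a median of -0.037. Without the suffixed probe sets the median was -0.061, against -0.078 for S genes.

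Mitotic cyclins and their kinase were almost level. Ccna2, which acts in S phase and at entry into mitosis, read 5389 in Hm and 5450 in WT. Ccnb2 read 4366 in Hm and 4213 in WT. Cdk1, the kinase that drives mitosis and whose promoter is shown above, read 4520 in Hm and 4358 in WT, a log2 ratio of 0.053. The phosphatases that activate it, Cdc25b and Cdc25c, read 822 and 807 in Hm and 829 and 814 in WT.

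Mki67 and Top2a were slightly lower on the Hm array. Mki67, the antigen used to stain cycling cells, read 7667 in Hm and 7891 in WT, a log2 ratio of -0.042. Top2a, which untangles sister chromatids, read 10930 in Hm and 11633 in WT, a log2 ratio of -0.090. Both are bright, and above 1000 95% of measured genes lay within 1.24-fold.

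On their brightest probe sets, spindle checkpoint genes had log2 ratios from -0.061 to 0.066. Another probe set of Bub1b stood at 0.11 and a dim one of Ttk at 0.18. Bub1 and Bub1b, the checkpoint kinases at the kinetochore, read 3420 and 2036 in Hm and 3567 and 2056 in WT. Mad2l1, which holds back the anaphase promoting complex, read 4869 in Hm and 4652 in WT, and Ttk, the kinase that starts checkpoint signalling, read 1449 in Hm and 1459 in WT. Cdc20, the activator of that complex, read 10535 in Hm and 10160 in WT. Its other probe sets were lower, at -0.13 and -0.26.

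The mitotic kinases split. Plk1 read 2369 in Hm and 2601 in WT, and Aurka, the centrosome kinase, read 1864 in Hm and 1978 in WT. Aurkb, the kinase of the chromosome passenger complex, was 1.10-fold higher, at 2039 in Hm and 1857 in WT, though the other probe set stood at -0.043 on the log2 scale.

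Kinetochore and spindle genes were all lower on their brightest probe sets, by at most 1.18-fold. Cenpa, the histone variant that marks centromeres, read 4955 in Hm and 5829 in WT, a log2 ratio of -0.23. Cenpe, a kinetochore motor, read 1706 in Hm and 1814 in WT, with -0.37 on its other probe set. Cenpf read 2574 in Hm and 2738 in WT. Tpx2, a spindle assembly factor, read 1982 in Hm and 2257 in WT, and Kif11, the motor that separates the poles, read 1950 in Hm and 2088 in WT. Kif20a, a kinesin of cell division, was level at 1988 in Hm and 1994 in WT. With both arrays above the floor, all 3 probe sets of Kif11 and all 3 of Tpx2 were lower.

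A second probe set of Cenpa stood far from the first. It read 19.1 in Hm, under the floor, and 380 in WT, at least 4.87-fold lower, while the remaining one was under the floor on both arrays. When probe sets with suffixes were left out, Cenpa was read from this probe set, and it was then the only member past 1.5-fold. The brightest Cenpa signal was 1.18-fold lower.

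Probe sets of the same gene did not always agree. Of 113 member probe sets, 96 were above the floor on both arrays, and 63 of these were lower and 33 higher in Hm. Several such probe sets were available for 30 genes, and in 14 of these all had the same sign while in 16 they did not. The SD between probe sets of the same gene was 0.17 on the log2 scale for members and 0.21 for the 5134 genes of the array with several such probe sets. Probe sets share the RNA sample and are not replicates.

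**Figure D3:**
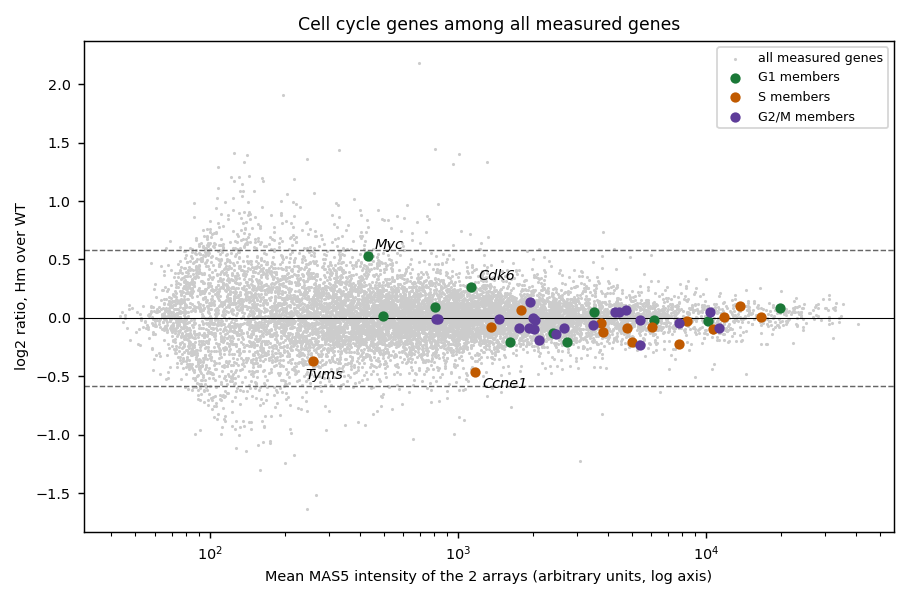
Log2 ratio, Hm over WT, against the mean MAS5 intensity of both arrays (log axis) for 11621 measured genes in grey and 47 cell cycle genes coloured by phase, with dashed lines at 1.5-fold. All 47 lie inside the dashed lines, and Myc at 0.53 and Ccne1 at -0.47 lie nearest to them.

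Other genes of the same pathway, listed by role with earlier results of these data known, mostly had small ratios. Of 158 measured genes in 5 further lists, 95 (60.1%) were lower and 63 higher in Hm, where 48.3% of measured genes were lower. Counts by direction in single lists changed with the choice of probe sets, as given below. The median log2 ratio of the 158 genes was -0.033, and 11 (6.96%) reached 1.2-fold, against 20.5% of measured genes. These genes are mostly bright too: above an intensity of 1000, 2 of 117 reached it, against 7.61% of measured genes, and between 200 and 1000, 7 of 38 did, against 24.0%. Past 1.5-fold were 2, Myb and Cdk20, against 3.56% of measured genes. Both lay between 200 and 1000, where 2 of 38 (5.26%) compare with 3.77% of measured genes. Myb, a transcription factor best known in blood progenitors, read 922 in Hm and 554 in WT, 1.66-fold higher, but its 3 probe sets ranged from -0.094 to 0.73. Cdk20, a kinase linked to cilia and the cycle, read 91.4 in Hm and 226 in WT, 2.47-fold lower on 1 probe set with the suffix _s_at.

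Inhibitors of the kinases showed no large difference. In that list, with Rbl1 and Rbl2, 7 of 9 genes were measured, 3 higher and 4 lower, none by 1.2-fold. Cdkn1c, an imprinted inhibitor of growth, read 12302 in Hm and 13131 in WT, and Cdkn1b read 1908 in Hm and 1951 in WT. Another Cdkn1b probe set went the other way, at a log2 ratio of 0.24. Cdkn1a, the p53 target p21, read 160.5 in Hm and 153 in WT, with 0.16 on another probe set. The lowest of the list was Cdkn2d at -0.12, and the highest Rbl2 at 0.097, with 0.66 on another Rbl2 probe set. Cdkn2a and Cdkn2b were under the floor on both arrays.

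The list of E2F, Dp and Myb factors had 9 lower and 6 higher genes of 15, and 5 of them (33.3%) reached 1.2-fold, against 20.5% of measured genes. Myb was the 1 higher, and Mxd3, E2f4, Mybl2 and Lin9 were the 4 lower, the last 3 at log2 ratios of -0.40, -0.39 and -0.26. E2f4 had 1 probe set above the floor, at 112 in Hm and 148 in WT. The other probe set of Mybl2 stood at -0.12, and that of Lin9 was higher, at 0.13. None of the 5 was above an intensity of 1000; between 200 and 1000, 4 of 9 reached 1.2-fold, against 24.0% of measured genes. Its lowest member was Mxd3, a repressor of the Myc network, at 669 in Hm and 885 in WT, a log2 ratio of -0.40. Among the 43 genes of origin firing and the fork, 23 were lower and 20 higher, none by 1.2-fold. There Gins4, of the helicase, was lowest at -0.24 and Orc5, of the origin recognition complex, highest at 0.21. By any size, 48.3% of all measured genes were lower. Of 30 other cyclin and CDK genes 19 were lower, with Cdk5, a kinase best known in neurons, highest at 0.27. The mean over probe sets gave 16 lower and 14 higher. Of 63 kinetochore, spindle and condensin genes 40 were lower, and 4 (6.35%) by 1.2-fold, against 8.99% of measured genes. Without suffixed probe sets 27 of 51 were lower and 24 higher, with a median of -0.0070. Mad1l1, a checkpoint gene, was lowest at -0.38 on a low signal of 122 in Hm and 158 in WT, and Melk, a mitotic kinase gene, highest at 0.24.

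**Figure D4:**
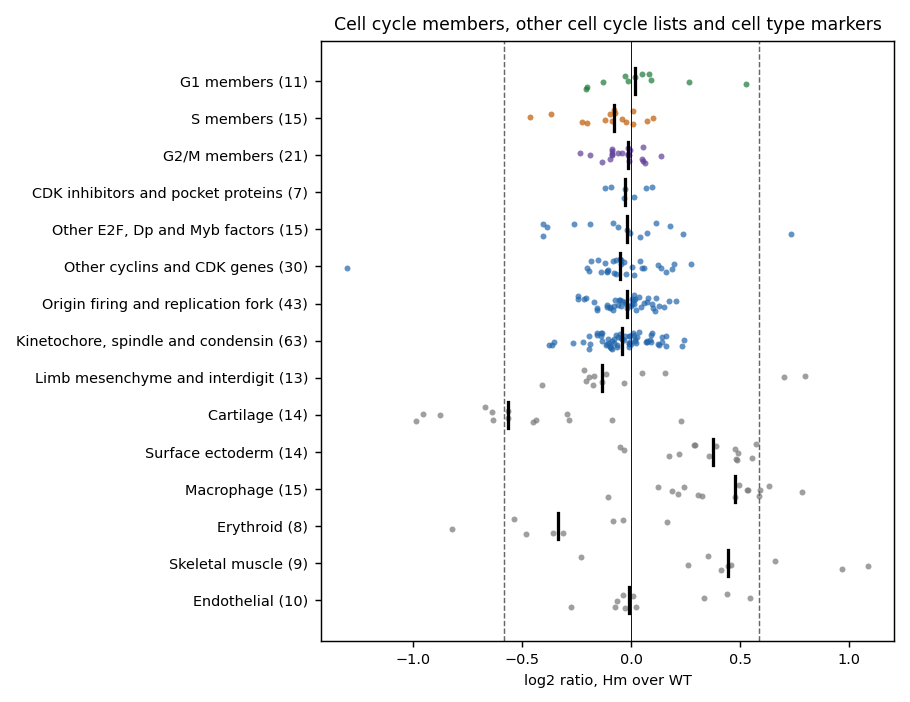
Log2 ratio, Hm over WT, of each measured gene (points) and the median (black bar) of 3 phases of cell cycle members, 5 further cell cycle lists in blue and 7 marker lists in grey, with the number of measured genes in brackets and dashed lines at 1.5-fold. The medians of the cell cycle sets lie between -0.077 and 0.020, while cartilage stands at -0.56 and macrophage markers at 0.48.

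The tissue label was checked with genes of limb mesenchyme and interdigit, and all 13 were above the floor, 4 higher and 9 lower in Hm, with summed intensities of 72921 in Hm and 79703 in WT. Prrx1 read 11651 in Hm and 12614 in WT, and Hoxd13 read 15779 in Hm and 17291 in WT. Tbx2 and Tbx3, transcription factors of the limb bud, were past 1.5-fold, at 506 and 455 in Hm and 311 and 262 in WT, while Hoxa13 was lower at a log2 ratio of -0.41. Of measured genes between 200 and 1000, 3.77% reached 1.5-fold. Several marker lists of other cell types had larger median ratios than the cell cycle sets. Beside their counts by direction, 48.3% of all measured genes were lower. Dim genes scatter more: up to an intensity of 200 the quartiles of measured genes were -0.18 and 0.25. Cartilage genes were lower in 13 of 14 measured, with summed intensities of 11102 in Hm and 17022 in WT. Surface ectoderm genes were higher in 12 of 14 (sums 18241 in Hm and 14302 in WT), macrophage genes in 14 of 15 (5998 in Hm and 4702 in WT) and muscle genes in 8 of 9 (2318 in Hm and 1546 in WT). Erythroid genes were lower in 7 of 8 (51839 in Hm and 59949 in WT), and endothelial genes were split, 5 higher and 5 lower (5482 in Hm and 5063 in WT). The muscle genes Pax3, Pax7, Myh8, Tnnt2 and Chrna1, the erythroid genes Epb42, Rhag and Hemgn, and Comp of cartilage were under the floor on both arrays. The part of these cell types in the ratios of cell cycle genes was not tested.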

How the data were processed

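The deposited values are linear intensities, 1 for each probe set on each array. Per the submitters' processing notes the authors used MAS5 and Affymetrix Expression Console, and a version is not given in the sources used here. After trimming 2% from each end, either array averaged 500.003. Per the labels' protocols, cRNA was made from 250 ng of total RNA. Detection calls were not used here.

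Of 45101 probe sets, 64 were controls. GEO's platform annotation, with symbols updated by gene ID through RefSeq's GRCm38.p6 table, gave 1 gene to 34945 probe sets, several to 932 and none to 9160; for 204 the gene ID had no match and the symbol was kept. Values were floored at the median (78.1), and a gene counted as measured if either array was above it. Where a gene had several probe sets, the brightest by mean intensity stood for it. The log2 ratio is Hm over WT. With 1 array per genotype no p-value was computed. The calculation was run on simulated data with planted changes larger than the main ratio of any member. That run does not show how differences as small as those of the members are recovered. Python 3.11.15, pandas 2.3.3 and statsmodels 0.14.6 were used.

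Members and lists were chosen with earlier results of these data known. All 48 members are named; of other cell cycle lists, those at 1.5-fold or more and otherwise the highest and lowest. Other list genes quoted were chosen after their values were seen, to describe their list.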

Additional observations from a re-analysis of the deposited data

How the results depend on the processing

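No paired analysis was possible because each genotype has 1 array. The 9 alternatives were 3 scalings (medians, quantile, lowess with span 0.3), floors at the 25th and 75th percentile, no floor, a pseudocount, the mean over probe sets, and the omission of suffixed probe sets (_x_at, _s_at, _a_at). Leaving out Tyms was added after seeing the data; the member median was then -0.024 and that of S genes -0.076. The median of all 47 genes stayed between -0.061 and -0.014, that of S genes between -0.087 and -0.052, and that of G2/M genes between -0.061 and -0.014. The G1 median changed sign, to -0.017, without the suffixed probe sets. The members at 1.2-fold numbered 4, but 3 under scaling by medians, with the pseudocount, with the mean over probe sets and without Tyms, and 2 under the floor at the 75th percentile. That floor removed Tyms and lifted the WT value of Myc. The genes behind the count changed too. With the mean over probe sets they were Myc, Cdk6 and Cenpa, and Ccne1 stood at -0.25. Without suffixed probe sets they were Cdk6, E2f1 (-0.45), Tyms and Cenpa, with Ccne1 at -0.043 and no value for Myc. None was at 1.5-fold, except 1 (Cenpa) with the mean over probe sets and 1 (Cenpa) without suffixed probe sets, which left 39 members. All measured genes at 1.5-fold numbered 414, against 2260 and 46 with floors at the 25th and 75th percentile, 4665 with no floor and 200 with the pseudocount; these settings measured 15722, 7026, 18193 and 11621 genes, and the cause was not tested further. Of 47 members, 45 kept their sign in the 3 scalings and 34 in all alternatives that gave a value; Tyms stood at 0.26 with the mean over probe sets. Where signal is under the floor, only bounds are had.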

Other observations

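The ratios can be set out by promoter word as a description. Among measured genes that are not cell cycle members, 393 had an E2F word in a promoter window, of which 213 were lower and 180 higher in Hm, with a median log2 ratio of -0.014. The 8991 without one had a median of 0.0087, with quartiles of -0.11 and 0.13. Among the S genes with a window, the 6 with an E2F word had a median of -0.092 and the 6 without one a median of -0.098. Of 13 measured G2/M genes with both a CHR word and CCAAT, 10 were lower and 3 higher, with a median of -0.086. Of the 3 G2/M genes with a window but not both words, 2 were lower and 1 higher. Over all members, 13 of 17 with both words were lower (median -0.089), and 12 of 18 without both (median -0.068). The 976 measured genes with both words that are not members were split evenly, 488 higher and 488 lower.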
